A study of Mus musculus with 8 samples.

Results

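Myc, Ccnd1, Vegfa, Pim1, Cebpb, Cebpd, Bcl3, Junb, Saa3 and Lcn2 are widely reported transcriptional targets of Stat3, and their expression was compared in whole lungs of CC-LR mice with and without TTI-101. The 10 genes were taken by name, from general knowledge of Stat3, out of the 54532 genes of the count table. They were chosen with earlier results of these data known. All 10 had enough reads to be tested. CC-LR mice carry the K-ras G12D allele, switched on in the lung epithelium by a Cre placed at the club cell secretory protein locus, and they develop lung tumors spontaneously. Both groups carried these alleles on a C57BL/6 background, and all lungs were taken at 14 weeks of age. The 4 control mice are labelled only as controls, and the 4 treated mice had received TTI-101, a small-molecule inhibitor of canonical STAT3 signaling, for 4 weeks. The route and dose for these mice, and what the controls received, were not given in the sources used here. RNA came from whole lung, so tumor, normal epithelium, stroma and immune cells were measured together. In such bulk samples, fewer cells of a type and less RNA per cell cannot be told apart.

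STAT3 is a transcription factor held in the cytoplasm until receptors for cytokines such as IL-6 and the kinases bound to them phosphorylate it on a tyrosine. It then pairs with itself, enters the nucleus and binds palindromic DNA elements. In lung epithelium and myeloid cells it is best known for driving acute-phase and defense genes, regulators of the cell cycle and survival, angiogenic factors and its own feedback inhibitor, Socs3.

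Library totals were 16446481 to 26873509 counts in controls, beside 16075855 to 25920509 counts with TTI-101. Control mouse 4 stood apart from the rest. It lay at 101 on the first principal component, which held 45.2% of the variance, while the other 7 mice lay between -39.3 and 17.9. Its mitochondrial share of counts was 5.56%, against 2.44 to 2.85% in the other controls and 2.01 to 2.84% in treated mice. Expression values are CPM, the reads of a gene as a rate of its TMM-adjusted library size, and fold changes are TTI-101-treated over control on the log2 scale. The p-values come from the quasi-likelihood F-test of edgeR, adjusted by Benjamini-Hochberg over the 17138 genes tested. The labels do not say outright that libraries of a group came from separate animals, and the p-values measure only the spread between these samples.

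None of the Stat3 targets passed an adjusted p of 0.05. By edgeR, Ccnd1 and Lcn2 were lower in treated lungs at an unadjusted p under 0.05. The intervals of all the other genes included 0, and those of Vegfa and Pim1 lay mostly above it. In numbers, edgeR called 0 of the 10 genes at an adjusted p under 0.05, where it also called 0% of all genes tested, and the adjusted p of the 10 genes ran from 0.657 to 0.925. DESeq2's Wald test and limma-voom also called 0 of the 10 after adjustment. At an unadjusted p under 0.05, edgeR passed 2 of the 10 genes, both lower in treated lungs, and DESeq2 and limma-voom each passed 3, with Vegfa added. Over all genes tested, 6.61% passed this threshold, 3.02% as higher and 3.58% as lower. At an unadjusted p under 0.01, 1 of the 10 passed, against 0.677% of all genes. The groups did not overlap for 1 of the 10 genes, Ccnd1, while 2.96% of all genes had groups that did not overlap, 1.53% as higher and 1.43% as lower. The fold change was above 0 for 4 of the 10 genes and below 0 for 6, against 50.6% above and 49.4% below 0 among all genes, and its median was -0.11 beside 0.00 over all genes tested.

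**Figure D1:**
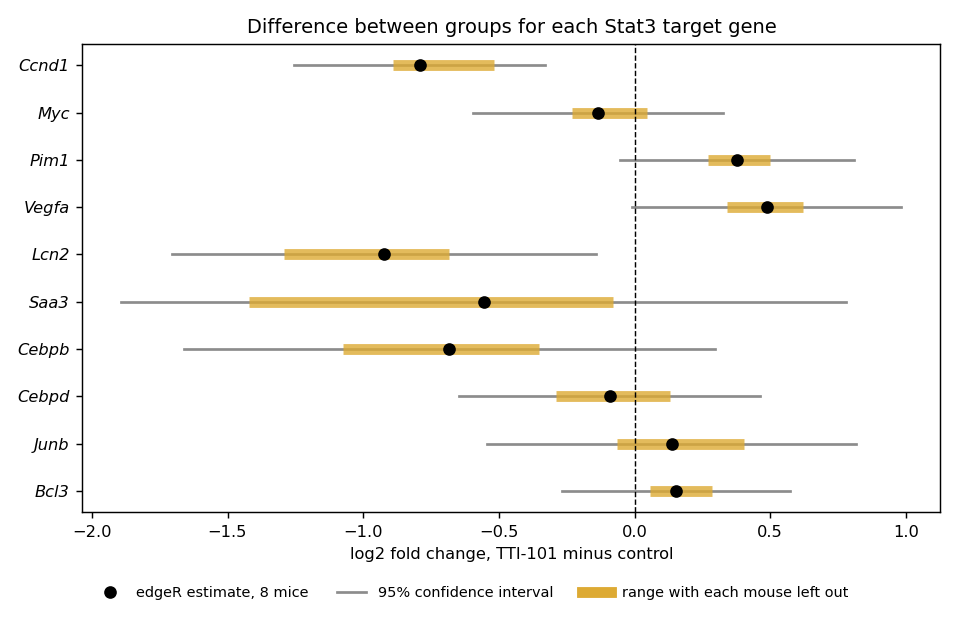
Log2 fold change of each of the 10 Stat3 targets, TTI-101-treated over control, with the edgeR estimate (point), its 95% interval (line) and the range over fits that each left out 1 mouse. The intervals of Ccnd1 and Lcn2 lay below 0, and those of the other 8 genes included 0.

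For Stat3 itself and its feedback inhibitor, the means of the groups differed by less than the spread between mice. Stat3 was at 257 ± 30.0 CPM in control against 244 ± 26.8 CPM in treated lungs (SD, n = 4 each), and the fitted log2 fold change was -0.08 (95% interval -0.40 to 0.25). TTI-101 acts on the protein, and the mRNA level does not measure phosphorylated STAT3. Socs3, which encodes the inhibitor that STAT3 induces to shut down its own pathway, was at 65.7, 49.3, 52.0 and 101 CPM in control mice 1 to 4. In TTI-101-treated mice 1 to 4 it was at 47.0, 85.6, 67.3 and 56.7 CPM. The highest single Socs3 value belonged to control mouse 4, and the groups overlapped over most of their range. Its log2 fold change was -0.06 with a 95% interval of -0.62 to 0.50 (adjusted p = 0.955 from edgeR). With 4 mice per group, the interval held differences of that size in either direction.

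Ccnd1 and Myc carry the growth arm of the Stat3 program. Ccnd1 (ENSMUSG00000070348, GRCm38 chromosome 7, 144929931 to 144939925) encodes cyclin D1, which activates CDK4 and CDK6 to move cells into S phase. Its expression was 202, 209, 229 and 384 CPM in control mice 1 to 4. In TTI-101-treated mice it was 152, 151, 146 and 142 CPM. Every treated library lay below every control library, and the treated values sat within a narrow band, with a coefficient of variation of 3.03%. The mean was 256 ± 86.3 CPM in control against 148 ± 4.48 CPM in treated lungs (SD, n = 4 each), 1.73-fold lower on the fitted scale. The log2 fold change was -0.79 (standard error 0.21, 95% interval -1.25 to -0.33), with an unadjusted p of 0.00321 and an adjusted p of 0.657 from edgeR. Control mouse 4 held the highest value, and without it the log2 fold change was -0.52 (unadjusted p = 0.00185 from edgeR), with the controls still at 202 to 229 CPM. Over all fits that left out 1 mouse, the log2 fold change lay between -0.89 and -0.52.

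Myc (ENSMUSG00000022346, chromosome 15, 61985391 to 61990374), a transcription factor that drives growth and metabolism, was at 14.1, 10.3, 10.7 and 17.7 CPM in control mice and at 13.1, 12.1, 11.5 and 11.4 CPM in treated mice. The treated values fell inside the control range, and control mouse 4 was again the highest. The log2 fold change was -0.13 (95% interval -0.59 to 0.33, adjusted p = 0.852 from edgeR), and without control mouse 4 it was 0.05. Mycl, the Myc relative first found amplified in lung cancer, was at 15.4 to 39.5 CPM in control and 12.0 to 23.5 CPM in treated mice, and its log2 fold change was -0.81 (unadjusted p = 0.0249, adjusted p = 0.657 from edgeR).

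**Figure D2:**
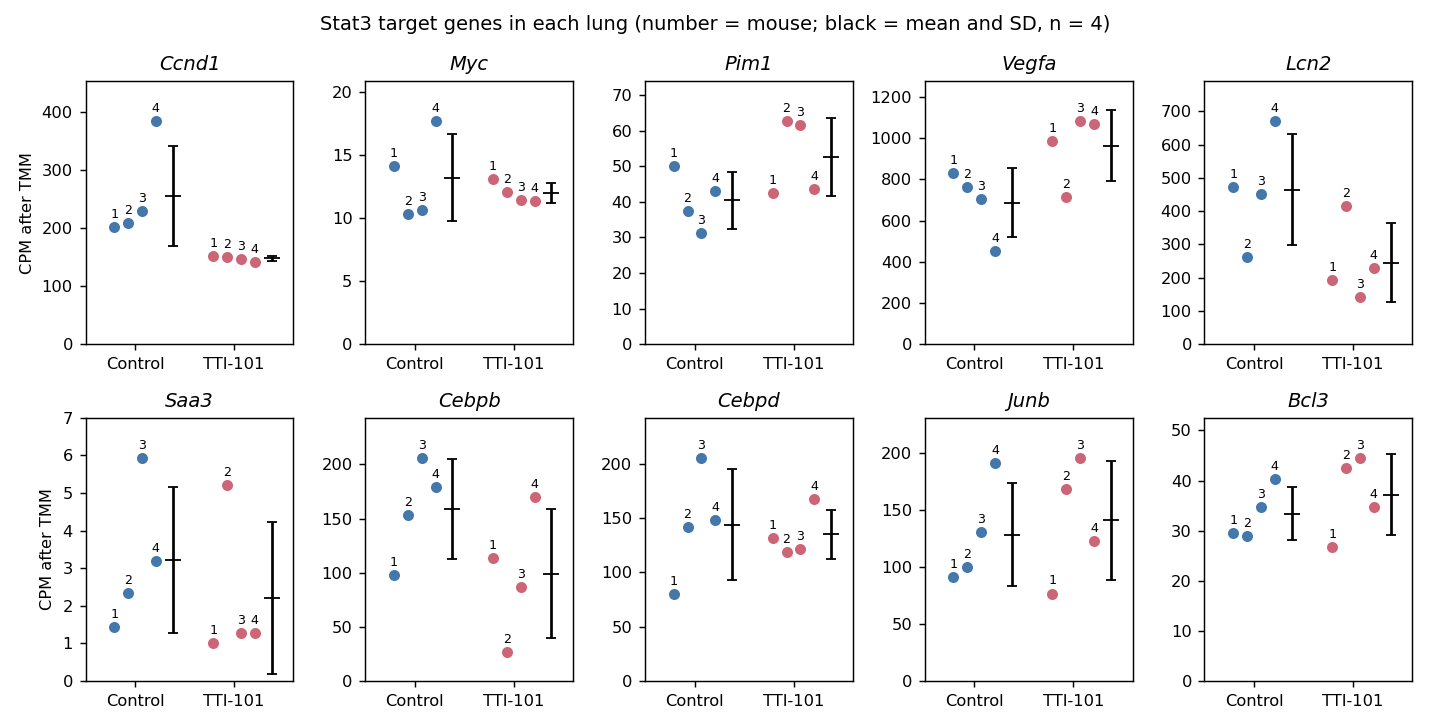
Expression of the 10 Stat3 targets in each mouse, in CPM on axes that differ between panels, with control and TTI-101-treated mice as separate columns of points and bars at the group means. The groups separate for Ccnd1 alone, control mouse 4 is the highest Ccnd1 point at 384 CPM, and TTI-101-treated mouse 2 is the lowest Cebpb point at 26.8 CPM and the highest treated Saa3 point at 5.22 CPM.

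Lcn2 and Saa3 are the acute-phase and defense genes among the 10. Lcn2 (ENSMUSG00000026822, chromosome 2, 32384633 to 32388252) encodes lipocalin 2, which withholds iron from bacteria by binding their siderophores, and it is made by inflamed airway and alveolar epithelium and by neutrophils. It was at 473, 262, 452 and 670 CPM in control mice 1 to 4. In TTI-101-treated mice it was at 192, 415, 142 and 229 CPM. The groups overlapped, since TTI-101-treated mouse 2 lay above control mouse 2. The means were 464 ± 167 CPM and 245 ± 119 CPM (SD, n = 4 each), 1.90-fold lower in treated lungs on the fitted scale. The log2 fold change was -0.92 (standard error 0.35, 95% interval -1.70 to -0.14), with an unadjusted p of 0.0247 and an adjusted p of 0.657 from edgeR. It was -0.68 without control mouse 4 (unadjusted p = 0.0737) and -1.29 without TTI-101-treated mouse 2 (unadjusted p = 0.00204, both from edgeR). Without TTI-101-treated mouse 1, 3 or 4, its unadjusted p was 0.068, 0.0687 or 0.0567 from edgeR.

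Markers of some epithelial cell types had lower estimates too, and 0 of them passed the adjusted test of edgeR. All 8 alveolar type 2 markers, such as Sftpc, and all 4 club cell markers, such as Scgb1a1, had lower estimates in treated lungs, with 0 of the 8 and 2 of the 4 at an unadjusted p under 0.05, beside 3.58% of all genes as lower. All 6 ciliated cell markers were also lower, 1 of them at that threshold. Alveolar type 1 markers went the other way, with 6 of 7 higher and 0 at that threshold. The alveolar type 2 markers summed to 41730 to 74200 CPM in control and 32690 to 59233 CPM in treated mice. The mice with the highest Lcn2 of their groups, control mouse 4 and treated mouse 2, also had the highest alveolar type 2, club and ciliated cell sums of their groups. Control mouse 1, with the next highest Lcn2 of the controls, had the lowest club and ciliated cell sums of the controls. The club cell markers summed to 17522 to 42699 CPM in control and 15102 to 27040 CPM in treated mice. Of the 13 neutrophil markers, 8 could be tested and 7 had higher estimates in treated lungs. The 8 summed to 190 to 509 CPM in control and 295 to 590 CPM in treated mice. Ltf, the tested marker with a lower estimate, made up a large part of these sums, at 103 to 278 CPM and 39.7 to 525 CPM. The sums therefore do not track the other tested markers alone. The 5 untested ones were low: per library, Elane had 0 to 3 counts, Mpo 0 in control and 0 to 13 in treated mice, Ly6g 1 to 6 and 1 to 19, Camp 2 to 6 and 1 to 21, and Ngp 0 to 12 and 4 to 52. The part of these cell types in the Lcn2 result was not tested.

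Saa3 (ENSMUSG00000040026, chromosome 7, 46711998 to 46715700) encodes a serum amyloid A protein made outside the liver, by macrophages and epithelium. It was the least abundant of the 10 genes per kilobase, resting on 21 to 107 counts per library. It was at 1.43, 2.33, 5.94 and 3.20 CPM in control mice and at 1.02, 5.22, 1.28 and 1.28 CPM in treated mice. TTI-101-treated mouse 2 lay among the highest controls, and the other 3 treated mice lay below all controls. The log2 fold change was -0.56 with a wide 95% interval of -1.89 to 0.78 (adjusted p = 0.784 from edgeR). It was -1.42 without TTI-101-treated mouse 2 (unadjusted p = 0.0167) and -0.08 without control mouse 3 (unadjusted p = 0.903, both from edgeR), so single mice set its size.

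Lcn2 and Saa3 were the only ones of the 7 genes with a promoter window that held the C/EBP motif TTGCNNAA, and these stretches are shown because C/EBP factors are themselves among the 10 genes. Windows of 300 bases, from 250 before to 50 after the start site, were taken from RefSeq on GRCm38.p6 for 7 of the 10 genes, with Myc, Ccnd1 and Cebpd unmatched. Capitals mark the motif, the sequences read 5′ to 3′ on the strand of the gene, and motifs were searched on both strands.
Lcn2, chr2:32387938-32387965, minus strand: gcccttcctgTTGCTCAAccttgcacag
Saa3, chr7:46715758-46715785, minus strand: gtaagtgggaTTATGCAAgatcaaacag
The Saa3 match reads as the motif on the opposite strand. The motif was in windows of 12.2% of all 27025 genes. The Stat3 palindrome TTCCNGGAA, present in windows of 1.35% of all genes, was in none of the windows of these 7 genes, and so was its wider form TTCNNNGAA, which contains it and was present for 9.55% of all genes. For comparison, the window of Socs3 held the wider form.
Socs3, chr11:117969502-117969530, minus strand: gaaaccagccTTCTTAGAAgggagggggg
The Lcn2 stretch lies inside the Lcn2 gene span given above, and the Socs3 stretch inside the Socs3 span of 117966079 to 117970047. The absence of these letters speaks only of these short windows. The AP-1 motif TGANTCA was in 0 of the 7 (8.97% of all genes), and the E-box CACGTG, which MYC can bind, was in 1 of the 7, Pim1 (8.09% of all genes).

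The wider group of 23 acute-phase and defense genes had 17 with enough reads, of which 13 had lower and 4 higher estimates in treated lungs, with a median log2 fold change of -0.32. By edgeR, 0 of the 17 passed after adjustment, and 4 passed an unadjusted p of 0.05, all lower, beside 3.58% of all genes as lower. The alveolar type 2 and club cell markers described above had lower estimates in the same mice, and their part in these values was not tested. The gene with the highest CPM, Hp, which encodes the hemoglobin-binding haptoglobin, was at 2047 ± 837 CPM in control against 1247 ± 615 CPM in treated lungs (SD, n = 4 each) (log2 fold change -0.71, unadjusted p = 0.0953, adjusted p = 0.657 from edgeR). Complement C3 was at 576 ± 84.5 CPM and 669 ± 96.1 CPM (SD, n = 4 each), with a log2 fold change of 0.22. The lowest estimate belonged to Fgg, the fibrinogen gamma chain, at 3.67, 1.73, 1.39 and 2.62 CPM in control and 0.490, 1.14, 0.445 and 1.34 CPM in treated mice, with groups that did not overlap and a log2 fold change of -1.48 (unadjusted p = 0.0108, adjusted p = 0.657 from edgeR). The other 3 lower genes, named after their values were seen, were Ptx3, whose groups also did not overlap (1.43% of all genes as lower), Itih4 and Cp, with log2 fold changes of -1.12, -0.55 and -0.56. The highest estimate belonged to Hamp, which encodes the iron hormone hepcidin, at 0.78 with a 95% interval of -1.08 to 2.63.

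Cebpb and Cebpd encode the C/EBP factors that STAT3 induces and that act with it on acute-phase promoters. Cebpb (ENSMUSG00000056501, chromosome 2, 167688915 to 167690418) was at 98.1, 153, 206 and 179 CPM in control mice. In TTI-101-treated mice it was at 113, 26.8, 86.4 and 170 CPM. TTI-101-treated mouse 2 lay far below the other 7 mice, and the groups overlapped otherwise. The log2 fold change was -0.68 (standard error 0.44, 95% interval -1.66 to 0.30, adjusted p = 0.67 from edgeR), and without that mouse it was -0.35. Without TTI-101-treated mouse 4 it was -1.07 (unadjusted p = 0.037, adjusted p = 0.788 from edgeR). In TTI-101-treated mouse 2, Saa3 was the highest of the treated group. Over all 8 mice, Cebpb and Saa3 had r of -0.15 (exact permutation p = 0.766, adjusted p = 0.917) and rho of 0.24 (exact permutation p = 0.582, adjusted p = 0.964), and r was 0.62 without the 2 mice farthest from the median of Cebpb. Cebpd (ENSMUSG00000071637, chromosome 16, 15887286 to 15891031) was at 80.2, 142, 206 and 148 CPM in control and at 132, 119, 122 and 168 CPM in treated mice, with all treated values inside the control range. Its log2 fold change was -0.09 (95% interval -0.65 to 0.46, adjusted p = 0.925 from edgeR), and it was 0.13 without control mouse 3. Their relative Cebpa, which maintains alveolar type 2 cells, was at 404 ± 176 CPM in control against 289 ± 42.1 CPM in treated lungs (SD, n = 4 each) (log2 fold change -0.48, unadjusted p = 0.0983, adjusted p = 0.657 from edgeR).

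Vegfa (ENSMUSG00000023951, chromosome 17, 46016993 to 46032369) encodes the principal endothelial growth factor, made in lung largely by alveolar type 1 cells. It was at 832, 765, 703 and 450 CPM in control mice 1 to 4. In TTI-101-treated mice it was at 988, 713, 1083 and 1070 CPM. The lowest value was that of control mouse 4, and 1 treated mouse, the one numbered 2, lay inside the control range. The means were 688 ± 167 CPM and 963 ± 172 CPM (SD, n = 4 each), with a log2 fold change of 0.49 (standard error 0.22, 95% interval -0.01 to 0.98, unadjusted p = 0.0542, adjusted p = 0.657 from edgeR). By DESeq2 and limma-voom the unadjusted p was 0.0314 and 0.0458, and the adjusted p was 0.887 and 0.655. Under other settings of edgeR the unadjusted p was 0.0498 with DESeq2 size factors, 0.0308 without a filter and 0.0494 with protein-coding genes only, so this gene lay at the threshold and crossed it with the method. Without control mouse 4 the log2 fold change was 0.34 (unadjusted p = 0.0958 from edgeR). The estimate was above 0, and those of Ccnd1 and Lcn2 were below 0. Alveolar type 1 markers had higher estimates for 6 of 7 genes and summed to 2060 to 3350 CPM in control and 3320 to 4550 CPM in treated mice. Control mouse 4 alone set the low end, since the other controls were at 3162 to 3350 CPM, and 0 of the 7 passed an unadjusted p of 0.05. Capillary endothelial markers had higher estimates for 7 of 7, with 1 at an unadjusted p under 0.05 beside 3.02% of all genes, and summed to 898 to 2710 CPM in control and 2314 to 4121 CPM in treated mice, again with the low end in control mouse 4. Fibroblast markers also had higher estimates for 7 of 7, with 0 at that threshold, and summed to 1490 to 3522 CPM and 3134 to 4644 CPM. The part of these cells in the Vegfa values was not tested. The VEGF receptor Kdr, an endothelial gene, was at 253 ± 58.1 CPM and 376 ± 126 CPM (SD, n = 4 each), and its log2 fold change was 0.57 (unadjusted p = 0.0566 from edgeR), while that of the co-receptor Nrp1 was 0.19 (unadjusted p = 0.457 from edgeR).

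Pim1, Bcl3 and Junb act in survival and immediate early signaling. Pim1 (ENSMUSG00000024014, chromosome 17, 29490812 to 29496111), a serine/threonine kinase that supports survival, was at 50.1, 37.4, 31.1 and 43.1 CPM in control and at 42.5, 62.7, 61.5 and 43.7 CPM in treated mice. The groups overlapped, with 2 treated mice above all controls, and the log2 fold change was 0.38 (95% interval -0.05 to 0.81, unadjusted p = 0.0797 from edgeR). Of its 2 promoter windows, the one at a start site inside the gene span given above held the E-box, shown here in the same form as the motifs above.
Pim1, chr17:29493017-29493042, plus strand: aaacaggaatCACGTGgtctgaaacc
Bcl3 (ENSMUSG00000053175, chromosome 7, 19808462 to 19822770), an IκB family protein that works with NF-κB subunits in the nucleus, was at 29.6, 28.9, 34.7 and 40.3 CPM in control and at 26.8, 42.5, 44.5 and 34.8 CPM in treated mice. Its log2 fold change was 0.15 (95% interval -0.27 to 0.57, adjusted p = 0.812 from edgeR). Junb (ENSMUSG00000052837, chromosome 8, 84974484 to 84978718), an AP-1 subunit, was at 91.3, 99.6, 130 and 191 CPM in control and at 76.6, 168, 196 and 123 CPM in treated mice. Its log2 fold change was 0.14 (95% interval -0.54 to 0.82, adjusted p = 0.906 from edgeR), and it was -0.06 without TTI-101-treated mouse 3. For Bcl3 and Junb alike, the groups overlapped over most of their range.

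Among relatives and partners of these 3 genes, Jun and Fosb had higher estimates. Jun, the founding AP-1 subunit, was at 224, 246, 232 and 159 CPM in control and 325, 240, 433 and 348 CPM in treated mice, and its log2 fold change was 0.65 (unadjusted p = 0.0104, adjusted p = 0.657 from edgeR). Fosb, another AP-1 subunit, was at 4.70, 7.59, 8.10 and 4.09 CPM and at 7.12, 8.89, 21.9 and 12.3 CPM, and its log2 fold change was 1.04 (unadjusted p = 0.0189 from edgeR). Nfkbiz, an IκB relative of Bcl3 named after its values were seen, had groups that did not overlap, at 25.2 to 29.3 CPM in control and 30.6 to 38.3 CPM in treated mice. Of all genes, 1.53% had groups that did not overlap as higher. Over all relatives of the 10 genes, 12 of 21 tested had higher and 9 lower estimates, with 2 higher and 1 lower at an unadjusted p under 0.05 (6.61% of all genes) and a median of 0.07. Over partners and receptors, 17 of 23 were higher and 6 lower, with 1 higher and 0 lower at that threshold and a median of 0.15. After adjustment edgeR passed 0 genes in either list. The lowest estimate among partners was that of Lrp2, an uptake receptor for lipocalin 2, at -0.82 (unadjusted p = 0.0668 from edgeR).

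Other reported Stat3 targets lay on both sides of 0. Of 33 such genes, 32 were tested, 18 had higher and 14 lower estimates, and the median log2 fold change was 0.05. By edgeR, 0 of them passed after adjustment, and 2 higher and 1 lower gene passed an unadjusted p of 0.05, a share near the 6.61% of all genes. The extremes were Mmp9, the matrix metalloproteinase that forms a complex with lipocalin 2, at 1.48 (unadjusted p = 0.0379 from edgeR), and Birc5, the survival and mitosis protein survivin, at -0.86 (unadjusted p = 0.0313 from edgeR). Mmp9 was at 27.6, 7.41, 13.7 and 4.92 CPM in control and 36.4, 7.27, 57.9 and 49.7 CPM in treated mice, with TTI-101-treated mouse 2 at the control level. Birc5 was at 5.17, 7.59, 7.77 and 7.93 CPM and at 3.24, 6.85, 3.45 and 2.19 CPM, again with TTI-101-treated mouse 2 inside the control range. Il4ra was the other higher gene, named after its values were seen, at 136 ± 18.1 CPM and 174 ± 14.8 CPM (SD, n = 4 each). The highest CPM values were those of Muc1, an epithelial mucin, at a log2 fold change of -0.51 (edgeR, unadjusted p = 0.0697), and Mcl1, an inhibitor of apoptosis, with 0.08.

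**Figure D3:**
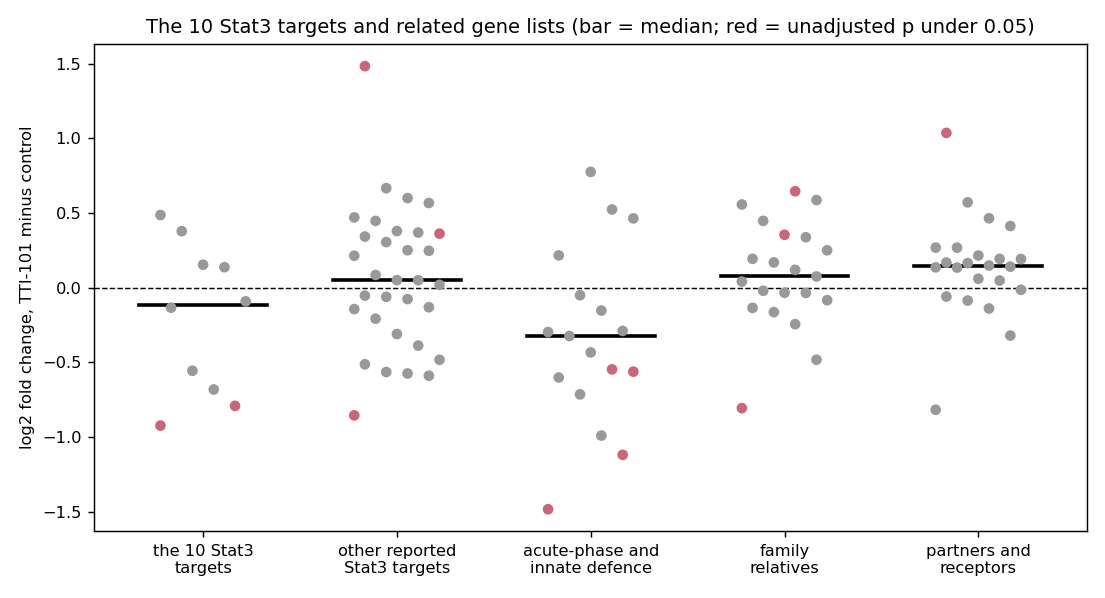
Log2 fold change of each tested gene, TTI-101-treated over control, for the 10 Stat3 targets and 4 related gene lists, with 1 point per gene and red points at an unadjusted p under 0.05. The acute-phase list has a median of -0.32, the list of partners and receptors 0.15, and no point passed an adjusted p of 0.05.

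Levels of the 10 genes were also compared per kilobase of gene length, as CPM per kilobase averaged over the 8 mice. Vegfa was the highest at 193, followed by Lcn2 at 135, Cebpb at 85.8, Junb at 58.4, Ccnd1 at 42.9, Cebpd at 37.2, Pim1 at 17.6, Bcl3 at 14.3, Myc at 4.63 and Saa3 at 1.04. The ranges of neighbors over the mice overlapped except between Bcl3 and Myc and between Myc and Saa3, so only these 2 steps exceeded the spread. Within groups, the coefficient of variation was 15.8 to 60.4% among controls and 3.03 to 91.9% among treated mice.

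From mouse to mouse, correlations among the 10 genes took both signs. Of the 45 pairs, 26 had a positive and 19 a negative correlation of log2 CPM over the 8 mice, and 1 passed an exact permutation test after Benjamini-Hochberg adjustment over the 45 pairs. That pair was Junb and Bcl3, with Pearson's r of 0.98 (exact permutation p = 0.000595, adjusted p = 0.0268) and Spearman's rho of 0.93 (exact permutation p = 0.00223, adjusted p = 0.1). The r was 0.99 without control mouse 4 (adjusted p = 0.0357 by exact permutation) and 0.99 after centering each group on its mean. Without the 2 mice farthest from the median of Bcl3 it was 0.96, and with 6 mice 0 of the 45 pairs passed the adjustment (smallest adjusted p = 0.65 by exact permutation). With 6 mice the exact test has too few orderings for a lone pair to pass adjustment over 45 pairs. That count therefore decides nothing about Junb and Bcl3. Vegfa and Lcn2 varied in opposite directions, with r of -0.87 (exact permutation p = 0.00511, adjusted p = 0.0739) and rho of -0.83 (exact permutation p = 0.0154, adjusted p = 0.138), and r was -0.75 without the 2 mice farthest from the median of Vegfa and -0.76 after centering. Ccnd1 and Vegfa had r of -0.90 (exact permutation p = 0.00605, adjusted p = 0.0739), which was -0.70 without control mouse 4 (adjusted p = 0.541 by exact permutation) and -0.58 without the 2 farthest mice. Pim1 and Cebpb had r of -0.81 (exact permutation p = 0.00657, adjusted p = 0.0739), and -0.83 without control mouse 4 (adjusted p = 0.179 by exact permutation). Ccnd1 and Lcn2 had r of 0.76 (exact permutation p = 0.0153, adjusted p = 0.137), and 0.50 after centering. Lcn2 and Saa3 had r of 0.66 (exact permutation p = 0.0813, adjusted p = 0.457). All these points share libraries and their scaling.

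**Figure D4:**
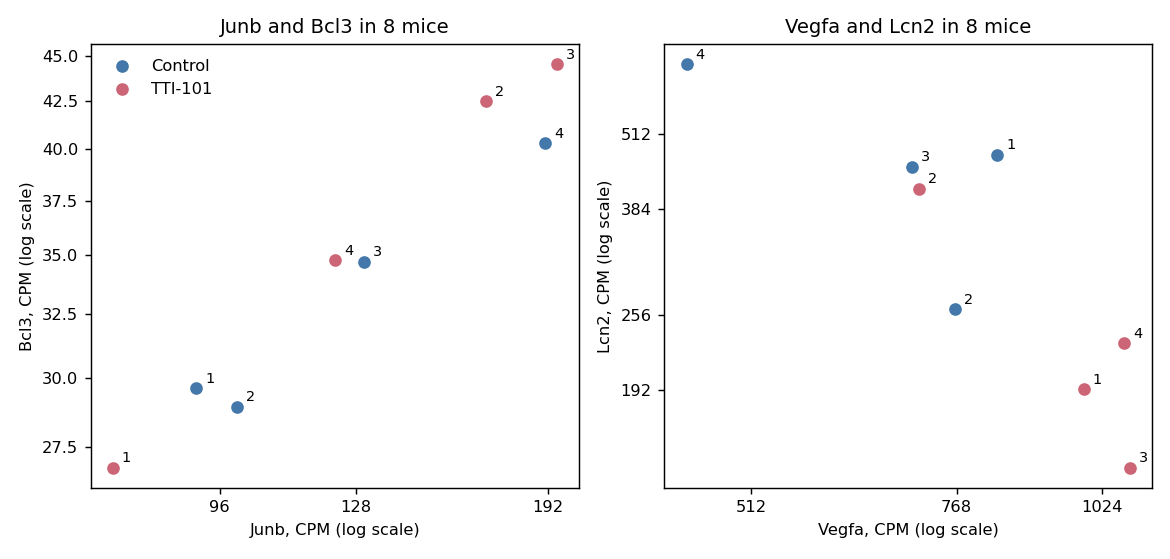
CPM of Junb against Bcl3 and of Vegfa against Lcn2 on log-scaled axes, with 1 point per mouse and colors for control and TTI-101-treated mice. The r values are those of log2 CPM given in the text. Junb and Bcl3 lie along a rising line (r = 0.98) with both groups mixed along it, and Vegfa and Lcn2 along a falling one (r = -0.87) with control mouse 4 at its low Vegfa end.

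**Figure D5:**
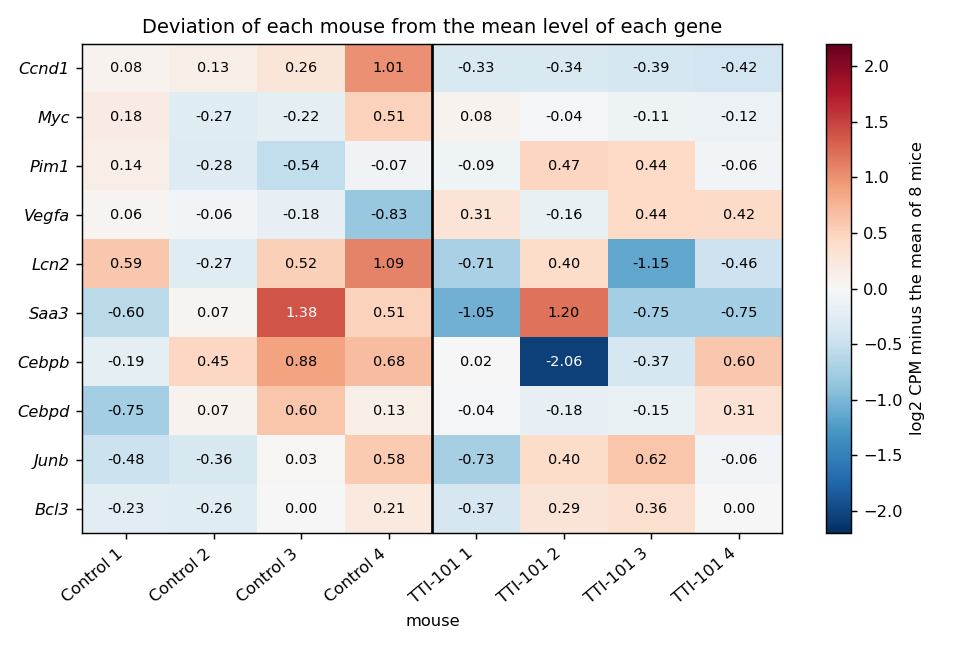
Deviation of each Stat3 target in each mouse from its mean over the 8 mice, in log2 CPM, with the mice as columns and a diverging color scale around 0. Control mouse 4 is high for Lcn2 (1.09) and Ccnd1 (1.01) and low for Vegfa (-0.83), and TTI-101-treated mouse 2 combines the lowest Cebpb (-2.06) with a Saa3 level of 5.22 CPM, the highest of the treated mice.

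For the 3 most variable of the 10 genes, the tested genes with the nearest pattern over the 8 mice were sought by the root mean square difference in centered log2 CPM among 17137 genes. Nearest to Lcn2, which had an SD of 0.76, were Csmd1 at 0.15, Piwil4 at 0.16 and Meg3 at 0.21. Nearest to Saa3, with an SD of 0.94, were Muc5ac, the airway gel-forming mucin, at 0.24, Cryaa at 0.28 and Morn5 at 0.29. Nearest to Cebpb, also with an SD of 0.94, were Gm42984 at 0.34, Rnaset2b at 0.37 and H60c at 0.39.

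In 6 of the 10 genes, Ccnd1, Pim1, Cebpb, Cebpd, Bcl3 and Junb, the annotation places a gene on the opposite strand over 351 to 2264 bases, for example LTO1 at Ccnd1 and Tmem189 at Cebpb. The library kit keeps strand, but the counting setting was not given in the sources used here, and without strand the reads of such partners cannot be told apart.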

How the data were processed

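RNA was extracted from whole CC-LR lungs, 4 control and 4 given TTI-101, poly(A) RNA was made into stranded libraries, and paired ends were sequenced and processed by the provider. The submitters' processing notes name STAR, DESeq2 and mm10, without versions. The annotation and counting settings were not given in the sources used here. The authors deposited raw counts per Ensembl gene without normalization. Of 54532 genes, 53585 had the coordinates of GENCODE M21, which places them on GRCm38.

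Groups were compared with the robust quasi-likelihood F-test of edgeR 4.0.16 (R 4.3.3) without covariates, after TMM scaling. The filterByExpr step, at a minimum count of 10, left 17138 genes. Log2 CPM for correlations used a prior count of 2. Correlations were tested by two-sided exact permutation in SciPy 1.17.1. Alternatives were the Wald test and the size factors of DESeq2 1.42.0, voom in limma 3.58.1, scaling by library totals, no filter, a filter of 10 counts in every library, only protein-coding genes, a replicate block and each mouse left out in turn. The fits were tested on simulated data. All 10 genes were named, and from each list Stat3, Socs3, the 2 most abundant genes, the highest and lowest fold changes and any with an unadjusted p under 0.01. The genes and lists were chosen with earlier results of these data known.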

Additional observations from a re-analysis of the deposited data

Results flagged for a closer look

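Single mice lay far from the rest of their group in 2 of the 24 groups of values examined, where chance alone gives about 1 in 20, or 1.2 here. For Ccnd1, control mouse 4 was at 384 CPM with the other controls at 202 to 229 CPM, and its gap to the nearest of them was 0.850 of the range of the group. For Saa3, TTI-101-treated mouse 2 was at 5.22 CPM with the other treated mice at 1.02 to 1.28 CPM, a gap of 0.938 of the range. Control mouse 4 was also the library that stood apart on the first principal component.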

How the results depend on the processing

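Over 16 alternatives, 157 of the 160 fold changes of the 10 genes kept their direction. The exceptions each left out 1 mouse: Myc ran from -0.23 to 0.047 (positive without control mouse 4), Cebpd from -0.29 to 0.13 (positive without control mouse 3) and Junb from -0.063 (without TTI-101-treated mouse 3) to 0.40. Adjusted p-values of the 10 genes lay between 0.28 and 1 over these fits. Over all genes, DESeq2 called 4 at an adjusted p under 0.05 and 398 at an unadjusted p under 0.01, and 2 of the 10 genes passed the latter. Without a filter, where more genes were tested, 1849 genes passed an unadjusted p of 0.05 and 282 passed 0.01. Leaving out 1 mouse moved the genes called after adjustment between 0 and 1, those at an unadjusted p under 0.05 between 422 (treated mouse 3 left out) and 2498 (treated mouse 2 left out), and those under 0.01 between 36 and 613 (the same mice). Of the 10 genes, 1 to 4 then passed 0.05 and 0 to 2 passed 0.01. The median of other Stat3 targets then lay between -0.035 (without TTI-101-treated mouse 2) and 0.10, and that of acute-phase genes between -0.60 (without TTI-101-treated mouse 2) and -0.22 (without control mouse 4). The cause was not tested. For correlations, leaving out the 2 farthest mice left 0 pairs past the adjusted threshold (smallest adjusted p = 0.65 by exact permutation) and 2 at an unadjusted p under 0.05, where 6 mice remained. With 6 mice the exact test has too few orderings for a lone pair to pass the adjusted threshold, so the count of 0 decides nothing.

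The labels do not say whether mice sharing a replicate number were handled together. Correlations of their deviations were 0.07 to 0.39, over 0.1 in 2 of 4 pairs, beside -0.42 to 0.17 for mice with different numbers. Of each group, 2 of 4 controls and 2 of 4 treated mice correlated best with their own number. Mouse 1 had the largest library of both groups, at 26873509 counts in control and 25920509 with TTI-101. A shared batch was not tested. With the replicate number as a block, 2 of the 10 genes passed an unadjusted p of 0.05 by edgeR, with Ccnd1 at -0.74 (unadjusted p = 0.00789) and an unadjusted p of 0.0448 for Lcn2. With 4 mice per group the standard errors of the log2 fold changes of the 10 genes were 0.19 to 0.60, the largest for Saa3 with its low counts. A difference has to exceed its standard error well beyond 1-fold to pass. Lcn2, at -0.92 with a standard error of 0.35, had an adjusted p of 0.657 from edgeR.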

Other observations

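Several relatives of the acute-phase genes were too low to test in these lungs. Saa1, Saa2 and Saa4, which are mainly liver-made serum amyloid A genes, had 0 to 1, 0 to 3 and 0 to 1 counts per library in control and 0 to 3, 0 and 0 to 3 counts in treated mice, so Saa3 was the one member of its family with enough reads. Saa1 and Saa2 are near-identical, and how the counting split their reads is uncertain. The fibrinogen chain Fga had 3 to 55 counts in control and 2 to 13 in treated mice, Fgb had 0 in every library, and the anti-inflammatory cytokine Il10 had 0 to 4 in both groups.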
